A study of Mus musculus with 58 samples.

Results

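BMAL1 peaks annotated to 7 genes of triglyceride storage and lipolysis were described in mouse fibroblasts and in mouse liver. Triglyceride is built in the liver by stepwise acylation of glycerol, kept in lipid droplets, broken down again by lipases at the droplet surface, and carried in plasma lipoproteins that are cleared by lipoprotein lipase. BMAL1 and CLOCK form the paired transcription factor that binds E-box sequences and drives the activating arm of the circadian clock, and lipid handling in liver is known to vary over the day. The 7 genes were Dgat2, Lpin2, Plin2, Pnpla2, Pnpla3, Angptl4 and Apoa5. A row of a BMAL1 peak list was taken when its annotated gene was one of these, and a CLOCK peak when its centre lay within 5 kb of such a row. This gave 3 of the 463 BMAL1 peaks of NIH3T3 cells, 8 of the 1254 BMAL1 peaks of liver, 1 of the 1016 CLOCK peaks of NIH3T3 cells and 0 of the 439 CLOCK peaks of liver. The genes were chosen by the presence of a BMAL1 peak annotated to them in these same lists, so their peaks, their distances and their contexts are a description and were not tested.

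The study set BMAL1 sites of a cell line beside those of a tissue. NIH3T3 is a mouse fibroblast line, whose clocks were synchronised by 30 minutes of 100 nM dexamethasone. Its BMAL1 list is named for 20 h after dexamethasone, while the labels tie it to 7 libraries of 12 to 38 h, and its CLOCK list is tied to 6 libraries of 18 to 38 h. For liver BMAL1, the authors processed again an earlier data set taken at zeitgeber time 6, that is 6 hours after lights on, and its strain and age are not given here. Per the labels, each NIH3T3 chromatin sample joined the nuclei of 2 dishes, and several precipitations were pooled for sequencing. The liver CLOCK list comes from 1 sample, called pooled, of C57/BL6 mice of 12 to 14 weeks with free access to food, and no time of day is given for it. The lists hold positions in mm9 and no height, score or value per library, so there is no replicate error, and the read depth behind a peak is unknown. A peak missing from a list may lie under its threshold. The 24 liver and 16 NIH3T3 RNA libraries were not analysed here, so no expression is reported.

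Promoter sequence could be set beside a BMAL1 peak for Plin2 and Pnpla2, whose liver peaks lay closest to the annotated start sites. The RefSeq promoter of each is shown from 250 bases before to 25 bases after its start site, read along the gene in assembly GRCm38.p6. That is chr4:86670035-86670309 on the minus strand for Plin2 and chr7:141454938-141455212 on the plus strand for Pnpla2. Capitals mark the E-box words searched for, CACGTG and CACGTT on either strand, of which CACGTG is the canonical E-box.
Plin2: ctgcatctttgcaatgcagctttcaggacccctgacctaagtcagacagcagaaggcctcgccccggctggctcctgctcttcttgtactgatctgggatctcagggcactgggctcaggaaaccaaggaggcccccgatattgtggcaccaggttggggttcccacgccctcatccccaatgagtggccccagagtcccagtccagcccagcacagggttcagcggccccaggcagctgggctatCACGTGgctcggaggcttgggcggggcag
Pnpla2: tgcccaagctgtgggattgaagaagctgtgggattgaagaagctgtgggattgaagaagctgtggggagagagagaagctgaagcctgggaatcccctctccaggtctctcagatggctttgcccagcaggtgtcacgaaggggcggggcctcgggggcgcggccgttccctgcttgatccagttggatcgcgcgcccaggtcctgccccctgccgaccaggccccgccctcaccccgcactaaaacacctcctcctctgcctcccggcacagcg
The Plin2 window holds a CACGTG across its start site, and the Pnpla2 window holds neither word.

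The genes of triglyceride synthesis differed in where BMAL1 stood. Dgat2 encodes diacylglycerol acyltransferase 2, which adds the last fatty acid of a triglyceride. It had the most peaks of the 7 genes, with 1 in NIH3T3 cells and 3 in liver. Its NIH3T3 peak, at chromosome 7, 106331528 to 106331583, lay 332 bp upstream of the annotated start site, and the liver list gave the same interval. The other liver peaks, at 106317314 to 106317363 and at 106316668 to 106316717, lay 13885 bp and 14531 bp downstream of the start site, their centres 646 bp apart. No NIH3T3 BMAL1 peak lay nearer to them than the promoter peak, 14217 bp and 14863 bp away. Of the 985 genes with a liver peak, 42 (4.26%) had 3 peaks or more, Dgat2 among them. A peak common to both contexts together with another of liver alone was found for 14 of them (1.42%), Dgat2 included.

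The gene next to Dgat2 in the RefSeq gene order is Mogat2, a monoacylglycerol acyltransferase that makes the diacylglycerol substrate. Mogat2 also carried a liver BMAL1 peak, at chromosome 7, 106374158 to 106374207, which lay 42627 bp from the Dgat2 promoter peak and 12922 bp downstream of the authors' start site of Mogat2. It had no NIH3T3 partner. The stretch thus held 4 liver BMAL1 peaks and 1 NIH3T3 BMAL1 peak. Neither CLOCK list had a peak there.

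**Figure D1:**
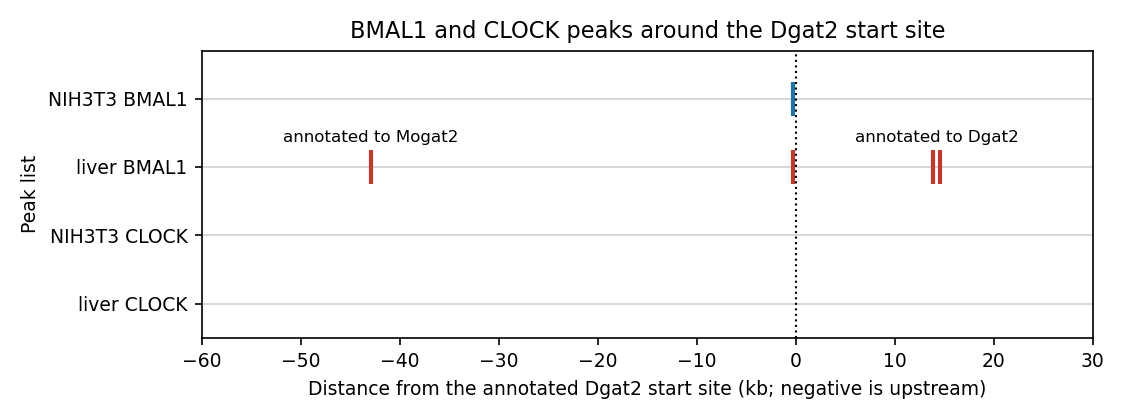
Peaks of the 4 lists around Dgat2 (rows), by distance of the peak centre from the annotated Dgat2 start site in kb, where negative values are upstream. Both BMAL1 lists have the peak just upstream of the start site, the liver list alone has those at 13.9 and 14.5 kb and the Mogat2 peak at -43.0 kb, and the CLOCK rows are empty.

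Lpin2 encodes lipin-2, a phosphatidate phosphatase that makes diacylglycerol. It was the one gene of the 7 annotated in NIH3T3 cells and not in liver. Its peak covered chromosome 17, 71491571 to 71491620, and lay 40305 bp upstream of the start site. Of the NIH3T3 BMAL1 peaks, 96.3% lay at most that far from their start sites. The nearest liver BMAL1 peak was 2.90 Mb away. In the RefSeq gene order Lpin2 lies between Myom1 and Emilin2, and neither of these had a BMAL1 peak in either list.

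Plin2 encodes perilipin-2, the main coat protein of lipid droplets in hepatocytes, and had 1 liver peak and none in NIH3T3 cells. The peak covered chromosome 4, 86315943 to 86315992, with its centre 3 bp upstream of the annotated start site. This was the closest of the 11 entries, and 21 of the 1254 liver peaks (1.67%) were as close or closer. The nearest NIH3T3 BMAL1 peak lay 29.1 Mb away.

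Pnpla2 and Pnpla3, of the patatin family, had liver peaks alone, at a promoter and at a distance. Pnpla2 encodes adipose triglyceride lipase, which starts the breakdown of stored triglyceride. Its peak, at chromosome 7, 148642831 to 148642880, was centred 62 bp upstream of the start site, and 14.4% of liver peaks lay at most that far from theirs. The nearest NIH3T3 peak, 19336 bp away, was annotated to Tspan4, a tetraspanin gene, and the liver list had a Tspan4 peak at the same distance. Pnpla3 encodes a related droplet protein (adiponutrin). Its peak covered chromosome 15, 83986710 to 83986759, at 11512 bp upstream of the start site, and 70.0% of liver peaks lay at most that far away. Its neighbour on the upstream side is Pnpla5, of the same family, which had no peak in either BMAL1 list. The nearest other liver BMAL1 peak, of the nucleoporin gene Nup50, lay 0.767 Mb away.

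The secreted regulators of plasma triglyceride also differed in position. Angptl4 encodes an inhibitor of lipoprotein lipase. Its peak covered chromosome 17, 33918109 to 33918168, at 382 bp downstream of the start site, and was the same interval in both lists. The nearest other BMAL1 peak, annotated to Brd2 in both lists, lay 0.341 Mb away. Apoa5 encodes apolipoprotein A-V, which favours lipolysis by lipoprotein lipase. Its liver peak covered chromosome 9, 46069332 to 46069381, at 7360 bp upstream of the start site, and the nearest NIH3T3 peak was 2.72 Mb away. Apoa5 is the last gene of an apolipoprotein cluster, and its neighbours Apoa4, Apoc3 and Apoa1 had no peak in either list. The next liver peak, of the kinase gene Sik3, lay 0.112 Mb away. Whether the intervals of these 7 genes lie in exons or introns is not given, because no mm9 annotation was used here.

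Over the 7 genes, 2 had the same interval in both BMAL1 lists (Dgat2 and Angptl4), 1 had a peak in NIH3T3 cells alone (Lpin2), and 4 had a peak in liver alone (Plin2, Pnpla2, Pnpla3 and Apoa5). Counted by entry, 2 of 3 NIH3T3 peaks and 2 of 8 liver peaks had a centre of the other BMAL1 list within 500 bp. Over all peaks this share was 59.2% in NIH3T3 cells and 21.8% in liver. The common intervals of Dgat2 and Angptl4 were among the first 263 entries of both lists, which are identical, so they are not an independent finding in each context. The same limit holds for the shares over all peaks. Those rest on 274 NIH3T3 and 273 liver peaks, most of them among the same 263. The intervals of Dgat2 and Angptl4 were 56 bp and 60 bp wide, and the other 7 were all 50 bp wide. In the liver list, 93.6% of the peaks of liver alone were 50 bp wide and 48.4% of the peaks found in both contexts, so the difference in width runs through the whole list.

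By distance, 2 of the 3 NIH3T3 entries and 4 of the 8 liver entries lay within 1 kb of the start site, where the lists as a whole had 71.7% and 44.7%. The 4 liver entries were those of Plin2, Pnpla2, Dgat2 and Angptl4. No entry fell between 382 bp and 7360 bp. Of all liver peaks, 35.3% lay at most 382 bp and 62.4% at most 7360 bp from their start sites, so such a gap among 8 entries is not read as a division of the genes. The median distance of the 8 liver entries was 3871 bp, between the closest distant peak and the farthest near one, and that of all 1254 liver peaks was 2182 bp. Among the 6 entries of liver alone, 2 lay within 1 kb, and over all 981 such peaks 33.6% did. Upstream of their start sites lay 5 of the 8 liver entries, against 54.1% of the list. The counts of the 7 genes are too small to be read as different from these shares.

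**Figure D2:**
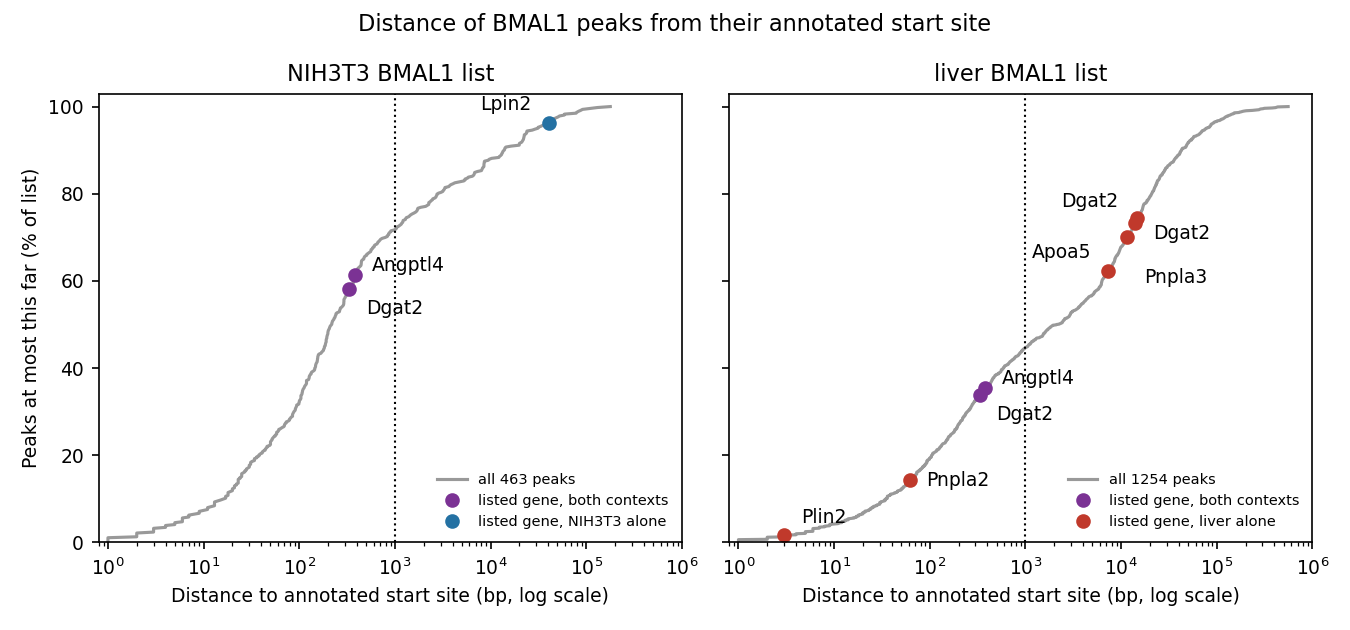
Cumulative share of BMAL1 peaks (%, vertical axis) by distance to the annotated start site (bp, log scale) in the NIH3T3 list and the liver list; grey lines are all peaks, points are peaks of the 7 genes, and the dotted line is 1 kb. Purple points (Dgat2, Angptl4) are found in both contexts, and 4 liver points lie at 3 to 382 bp and 4 at 7360 to 14531 bp.

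Within 5 kb of these sites there was 1 CLOCK peak. The single case was Pnpla3, where an NIH3T3 CLOCK peak at chromosome 15, 83988595 to 83988644, lay 1885 bp from the liver BMAL1 peak, on the side of the gene. Counted from the authors' start site it lay 9627 bp upstream. The pairing joins a BMAL1 peak of liver to a CLOCK peak of fibroblasts. No BMAL1 peak of Pnpla3 was in the NIH3T3 list, and the nearest liver CLOCK peak was 2.35 Mb away. Among all liver BMAL1 peaks, 87 of 1254 (6.94%) had an NIH3T3 CLOCK peak within 5 kb. For 5 of these (0.399% of the list) it lay beyond 500 bp, and the Pnpla3 peak was one of them.

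For the other genes the nearest NIH3T3 CLOCK peak lay far outside the 5 kb limit. It stood 239506 bp from the Plin2 peak, the next closest after Pnpla3, and 0.349 Mb from Apoa5, 0.373 Mb from Pnpla2, 0.613 Mb from the Dgat2 promoter peak and 0.875 Mb from Angptl4. The value for Lpin2 was 4.32 Mb, the farthest of the 7. Over all liver BMAL1 peaks the median was 665 kb, and of the 8 liver entries Angptl4 alone lay farther. Over all NIH3T3 BMAL1 peaks it was 374 kb, and the 3 entries of that list (Angptl4, Dgat2 and Lpin2) all lay farther. The medians of the entries were 493 kb in liver and 875 kb in NIH3T3 cells, and the differences were not tested. The nearest liver CLOCK peak lay from 0.769 Mb at Apoa5 and 0.770 Mb at Plin2 to 16.9 Mb at Dgat2, with a median of 2.15 Mb over all liver BMAL1 peaks. At Lpin2 the liver CLOCK peak, 1.52 Mb away, was nearer than the NIH3T3 one, and at the other 6 genes it was farther. With 0 of 3 entries, the NIH3T3 peaks of Angptl4, Dgat2 and Lpin2 had no NIH3T3 CLOCK peak within 5 kb, where 22.9% of the list did. Of the 8 liver entries 0 had a liver CLOCK peak within 5 kb, where 4.63% of the list did. With 3 and 8 entries these counts are not a result about the genes, and CLOCK binding under the threshold of a list cannot be seen.

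**Figure D3:**
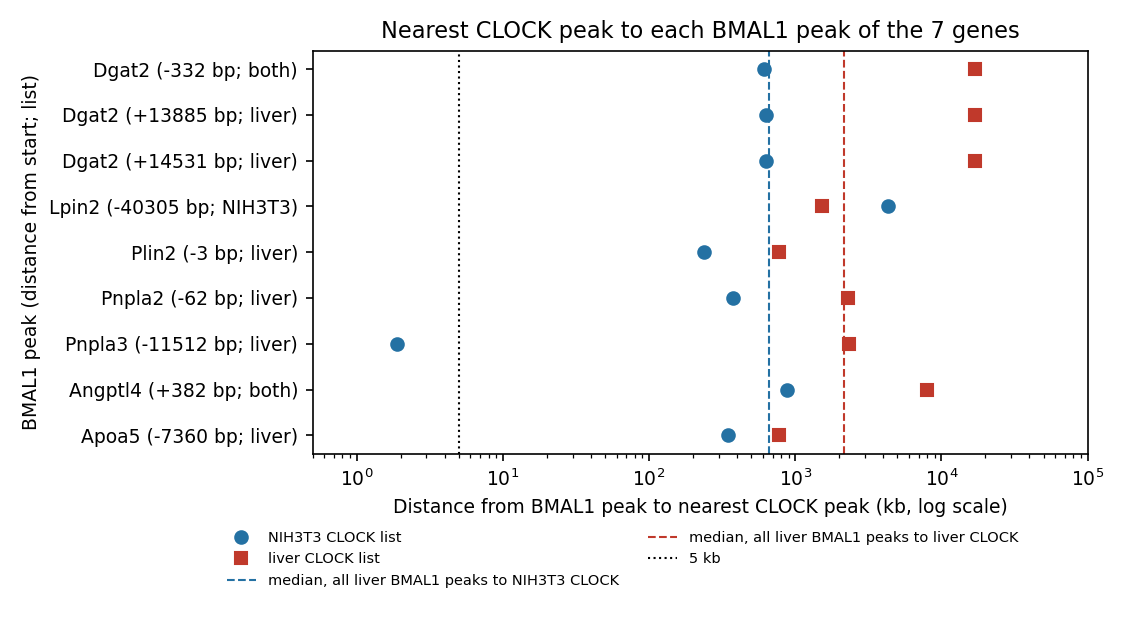
Distance in kb (log scale) from each of the 9 different BMAL1 intervals of the 7 genes, labelled by gene, distance from the start site and list, to the nearest peak of the NIH3T3 CLOCK list (circles) and the liver CLOCK list (squares). Dashed lines are the medians over all liver BMAL1 peaks, and the Pnpla3 circle at 1.89 kb is the one point left of the dotted 5 kb line.

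E-box words were counted in the RefSeq promoter windows, which run from 250 bases before to 50 bases after a start site, for the 5 genes with a window (Lpin2 with 3 start sites, Apoa5 with 2, and Plin2, Pnpla2 and Pnpla3 with 1 each). Dgat2 and Angptl4 were not matched. The word CACGTG was found for 3 of the 5 genes, Plin2, Lpin2 and Apoa5, and CACGTT for none. At Lpin2 the match was in the window of the first start site alone. Over all 27025 genes with a window, 13.0% held CACGTG or CACGTT, and 8.09% held CACGTG. A gene with more start sites has more windows to match. With 5 genes chosen for a BMAL1 peak, the count is not read as different from these shares. The matches are shown with 12 bases on either side, in GRCm38.p6, because they let the flanks be compared: chr4:86670046-86670075 (minus strand) for Plin2, chr17:71183511-71183540 (plus) for Lpin2 and chr9:46268514-46268543 (plus) for Apoa5.
Plin2: cagctgggctatCACGTGgctcggaggctt
Lpin2: cggagctcgcgtCACGTGgccgggccgggg
Apoa5: tctttgaccctcCACGTGgtgtttgctcag
Outside the E-box, with each sequence read along its gene, 1 of the 24 flanking positions had the same base in all 3 sequences. CACGTG reads the same on both strands, so each site could also be read the other way round. Other orientations were not compared, and the count depends on this choice.

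Of these matches, that of Plin2 could be placed beside a BMAL1 peak. It ran from position -4 to position 2 counted from the RefSeq start site, the first transcribed base being 1. The liver peak, placed by the authors' distance, ran from -28 to 22. Whether the authors' start site in mm9 is the RefSeq one was not tested. The CACGTG of Lpin2 lay at -9 to -4 of its first start site, and that of Apoa5 at -82 to -77. By the authors' distances the peaks of these genes were 40305 bp and 7360 bp upstream, so none was placed in these windows. Which of the RefSeq start sites of Lpin2 the authors used was not established. Whether its peak lies near the CACGTG was therefore not tested. At Pnpla2 the peak, placed in the same way, ran from about -87 to -37 and covered a looser E-box word of the form CANNTG at -70 to -65. A word of that form is somewhere in 72.3% of all windows, so its presence in a window is common. How often one falls within a stretch of 50 bp, the width of the peak, is not given. A match is a description of the letters and does not show a binding site, and none says nothing about binding at Pnpla2.

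**Figure D4:**
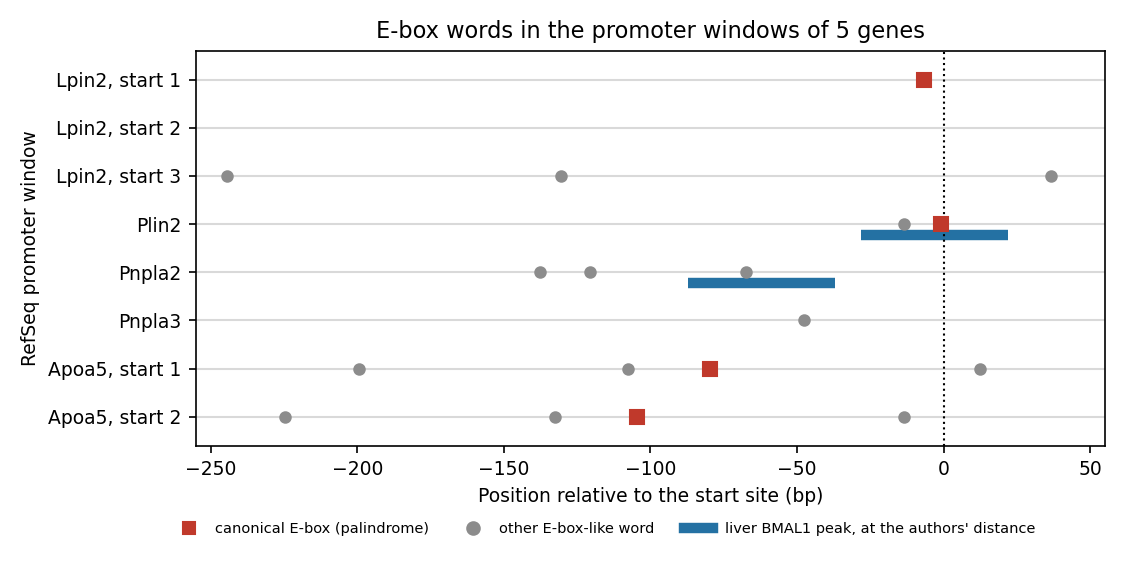
Positions (bp from the RefSeq start site) of the canonical E-box, a palindrome (squares), and of looser E-box words (circles) in the 8 promoter windows of 5 genes, with the liver BMAL1 peaks of Plin2 and Pnpla2 as bars placed by the authors' distance. The Plin2 bar, from -28 to 22, covers a square at the start site, and the squares of Lpin2 and Apoa5 have no bar. Bars show liver peaks alone, and the peak of Lpin2 is in the NIH3T3 list.

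Other genes of the same pathway were counted in the BMAL1 lists. A list of 54 genes of triglyceride synthesis, droplet coating, lipolysis, plasma lipases and secretion, without the 7, had 2 genes with a liver peak and 0 with an NIH3T3 peak. Both were monoacylglycerol acyltransferases of the 14 synthesis genes. Mogat1 had its liver peak at chromosome 1, 78534399 to 78534481, 236 bp downstream of the start site, and Mogat2 is described with Dgat2. None of 11 droplet coat genes, 13 lipolysis genes, 11 genes of plasma lipases and 5 secretion genes had a peak in either list. Of 21900 protein-coding genes in the RefSeq table, 829 (3.79%) had a liver BMAL1 peak and 306 (1.40%) an NIH3T3 peak. These shares are not a fair measure for the 54, because the 7 genes taken out of the pathway were chosen for having a peak. The genes without a peak included Dgat1, the other diacylglycerol acyltransferase, Lpin1 and Lpin3, the other lipins, Plin1, Plin3, Plin4 and Plin5, the other perilipins, and Lipe and Mgll, the lipases that follow adipose triglyceride lipase.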

How the data were processed

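The 4 peak lists were used as the authors deposited them. Per the submitters' processing notes, Bowtie, SAMtools, bedtools and the build mm9 were used, in roles that are not stated. No peak caller, threshold or filter is given in the sources used here. The authors' signed distance runs from the peak centre to a start site. Among adjacent liver peak pairs of 1 gene whose distances changed by the same amount as their positions (within 2%), the distance rose with the coordinate in 58 of 58 pairs on the plus strand and fell in 44 of 44 on the minus strand. Another 21 and 25 pairs did not change by the same amount and were not used. Pairs of genes without a single strand in the promoter table were not used either. Among those the distance rose in 29, fell in 36 and changed by another amount in 6. Negative was therefore read as upstream. For Dgat2, which had no strand in the promoter table, a single start site resulted when the distance fell as the coordinate rose. Starts are printed counting from 1.

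Peaks were called common where centres lay within 500 bp. No test was run, because the lists hold no replicates and the genes and the lists were chosen with earlier results of these data known. All 7 genes are named with every peak, and those of the other 54 with a peak. All 54 matched a symbol or synonym in the RefSeq table of GRCm38.p6, used for names and gene order alone. The gene column of the NIH3T3 CLOCK list was not used to link peaks to genes. The counting by distance was tried on simulated peaks, moved either to well within 500 bp or beyond any chromosome. Distances close to 500 bp were not tried. Python 3.11.15, NumPy 2.4.6, pandas 2.3.3 and matplotlib 3.10.9 were used.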

Additional observations from a re-analysis of the deposited data

How the results depend on the processing

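Centre distances of 200 and 1000 bp, and overlap by at least 1 bp, left the common peaks of the 7 genes at 2 in each BMAL1 list. Without the first 263 identical entries, an alternative chosen after seeing the data, 0 of 1 NIH3T3 and 0 of 6 liver entries were common, and 0 and 2 lay within 1 kb of a start site. The whole lists had 274 NIH3T3 and 273 liver common peaks, most of them among those 263. The lists as a whole thus lose most of their common peaks as well. With promoters limited to 200 bp, 0 of 3 NIH3T3 and 2 of 8 liver entries (Plin2 and Pnpla2) remained, and with 5 kb the counts were 2 and 4. For all NIH3T3 peaks the median distance was 219 bp and the upper quartile 1443 bp. For all liver peaks the lower quartile was 173.5 bp and the median 2182 bp. CLOCK within 500 bp left 0 entries, as Pnpla3 was lost, and within 50 kb Pnpla3 was again the 1 entry. The shares of the whole lists at these other promoter and CLOCK limits are not given, so the counts are not read as a result about the genes. Of the 54 other genes, 1 (Mogat1) had a liver peak within 10 kb and 1 within 1 kb. CACGTG alone gave the same 3 genes, and CANNTG, also chosen after seeing the data, all 5. Depth limits all counts, since sites under a list's threshold cannot be seen, and read depth is unknown. No paired analysis was possible because the peak lists hold no value per replicate.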

Other observations

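The NIH3T3 CLOCK list carries a gene label per peak. The label Pnpla3 stands there at chromosome 4, 135303746 to 135303795, while Pnpla3 is on chromosome 15, and the CLOCK peak that does lie near the Pnpla3 BMAL1 peak has no gene label. In that list, the labels of the 38 named rows before row 40 were all on the chromosome of their peak by the RefSeq table. From row 40 on, 58 of 634 named rows (9.15%) were. A search of that list by gene name would therefore miss the CLOCK peak near Pnpla3 and return one on another chromosome.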
